A study of Mus musculus with 8 samples.

Results

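The FoxO transcription factors and the enzymes that set their acetylation were followed here in whole liver RNA of NASH diet–fed mice. The members were taken by symbol, as the rows of the deposited gene table whose Ensembl identifier GENCODE M21 pairs with Foxo1, Foxo3, Foxo4, Foxo6, Sirt1, Crebbp or Ep300. All 7 were found among 46517 genes, 4 of them FoxO genes and 3 of them co-regulators. The study asked what loss of FoxO1 in myeloid cells does to the liver in nonalcoholic steatohepatitis (NASH), and the liver transcriptome of MøFoxO1-KO mice was compared with that of WT littermates by poly(A) RNA-Seq. The MøFoxO1-KO mice carried Lyz2-Cre and loxP-flanked FoxO1 alleles, on the C57BL/6 background. Per the study's methods, the WT littermates also carried the loxP-flanked alleles but lacked Cre, and the Lyz2 promoter drives Cre in myeloid cells. All 8 mice were males, began the NASH diet when 6 weeks old, stayed on it for 25 weeks, and were 31 weeks old and fasted for 16 h when liver was taken. Each library came from the liver of 1 mouse, with WT replicates 22, 23, 24 and 25 and MøFoxO1-KO replicates 26, 27, 28 and 29, and held between 15253218 and 18025481 counts. The tissue label was borne out by hepatocyte markers, whose 9 genes summed to between 1173171 and 2061946 normalized counts per liver, more than any other marker list. Liver RNA pools all cell types, so fewer cells of a type and less RNA per cell cannot be told apart, and the FoxO1 of myeloid cells cannot be told apart from that of other cells.

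FoxO proteins are forkhead factors that switch on genes of gluconeogenesis, cell cycle arrest, antioxidant defense, autophagy and cell death. Insulin acts through PI3K and AKT to phosphorylate them, after which YWHA adaptor proteins hold them in the cytoplasm. The acetyltransferases CBP, encoded by Crebbp, and p300, encoded by Ep300, serve FoxO proteins as coactivators and also acetylate them, and the NAD-dependent deacetylase Sirt1 removes acetyl groups. In hepatocytes FoxO1 drives glucose production during fasting, and FoxO3 and FoxO4 bind the same core DNA motif. Most of this control acts on the proteins, which were not measured here.

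None of the members passed the test across all genes. Of 13278 genes with enough counts, 39 were called at an adjusted P under 0.05 in MøFoxO1-KO against WT livers, which is 0.294% of the genes tested, and 25 of these, 0.188%, also had an absolute log2 fold change over 1.5. Of the 7 members, 6 had enough counts for this test and 0 were called (quasi-likelihood test of edgeR). Their adjusted P values (edgeR, Benjamini-Hochberg) ran from 0.237 to 0.924, and Ep300 alone had an unadjusted P under 0.05, of 0.0252. In DESeq2 and limma-voom 0 members were called as well, where these called 586 and 24 of the 13278 genes tested. The DESeq2 calls named below are to be read beside that total. The 3 FoxO genes tested had estimated changes of -11.0% (Foxo1), -15.8% (Foxo3) and -15.1% (Foxo4) in MøFoxO1-KO against WT livers, and the mice of both groups overlapped for each of them. In a fit with an offset for gene length their log2 fold changes of -0.17, -0.25 and -0.24 became -0.060, -0.15 and -0.21. Ep300 was the member whose groups did not overlap, with every MøFoxO1-KO liver below every WT liver. Among all genes tested, 4.71% had every MøFoxO1-KO mouse below every WT mouse.

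**Figure D1:**
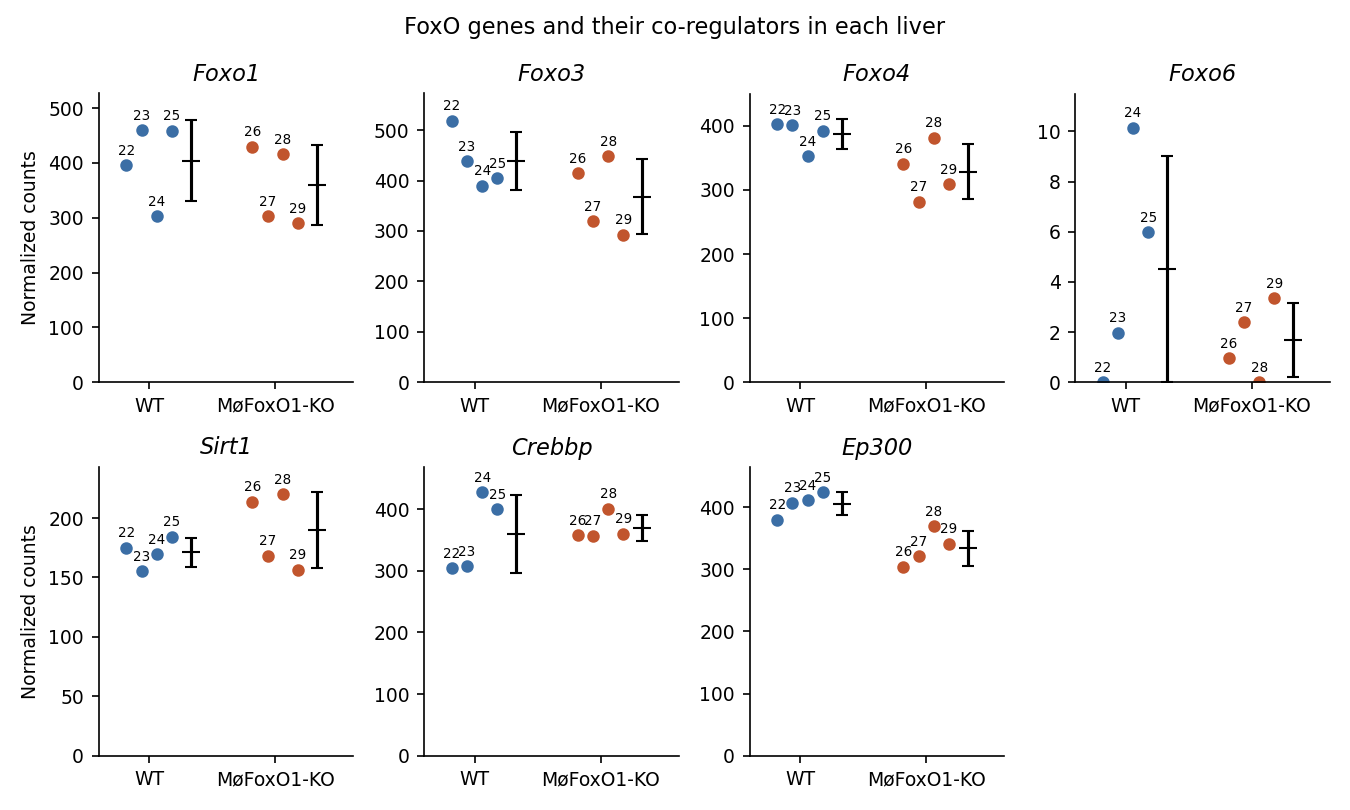
Normalized counts (vertical axis, starting at 0) of each member in each liver, with WT mice in blue, MøFoxO1-KO mice in orange, replicate numbers above the points, and the mean ± SD of 4 mice in black. Replicates 27 and 29 were the lowest MøFoxO1-KO livers for Foxo1, Foxo3 and Foxo4, and the groups did not overlap for Ep300.

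Foxo1 (ENSMUSG00000044167), the gene deleted in myeloid cells, lies on the plus strand of chromosome 3 of GRCm38 from 52268336 to 52353221. After scaling to a common library size, which is what normalized counts means throughout, WT replicates 22 to 25 had 395, 459, 303 and 459 Foxo1 counts. MøFoxO1-KO replicates 26 to 29 had 429, 302, 416 and 290. Replicates 27 and 29 lay just below the lowest WT liver, whereas replicates 26 and 28 lay among the WT livers. The log2 fold change was -0.17 with a 95% interval from -0.57 to 0.24, or from -32.6% to 17.7% (edgeR, adjusted P = 0.686). The interval does not exclude a loss of Foxo1 from whole liver down to its lower bound. Foxo1 has 8665 bases of exon, longer than 89.7% of tested genes. The offset for gene length took its log2 fold change to -0.060 (edgeR, adjusted P = 0.903). The deposited count sums all exons of the gene, so it does not isolate the deleted part. The 300 bases around the RefSeq start of Foxo1 are shown because CCAAT boxes were found in them, 3 in number and all on the opposite strand, where they read ATTGG and stand in capitals (GRCm38.p6, plus strand, chr3:52268087-52268386).

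Foxo1: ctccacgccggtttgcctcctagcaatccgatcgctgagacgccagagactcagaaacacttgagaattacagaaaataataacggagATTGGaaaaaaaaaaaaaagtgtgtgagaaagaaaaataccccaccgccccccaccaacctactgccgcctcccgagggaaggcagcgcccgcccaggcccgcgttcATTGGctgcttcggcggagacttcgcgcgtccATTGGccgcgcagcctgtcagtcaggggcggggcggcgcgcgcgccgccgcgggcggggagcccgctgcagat

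Foxo3 (ENSMUSG00000048756), the family member linked to stress resistance and longevity, lies on the minus strand of chromosome 10 from 42181841 to 42276755. WT livers had 519, 439, 389 and 405 normalized counts, in the order of replicates 22 to 25. MøFoxO1-KO livers had 414, 319, 448 and 292, in the order of replicates 26 to 29. As with Foxo1, replicates 27 and 29 lay below all WT livers and the other two lay among them. The log2 fold change was -0.25 with an interval from -0.61 to 0.11 (edgeR, adjusted P = 0.476; exact two-sided permutation test of the normalized counts, P = 0.257). Foxo3 has 7571 bases of exon, and the offset for gene length took this fold change to -0.15 (edgeR, adjusted P = 0.683). The matching window of Foxo3, printed for comparison with that of Foxo1, held no match to any motif searched (GRCm38.p6, minus strand, chr10:42276646-42276945).

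Foxo3: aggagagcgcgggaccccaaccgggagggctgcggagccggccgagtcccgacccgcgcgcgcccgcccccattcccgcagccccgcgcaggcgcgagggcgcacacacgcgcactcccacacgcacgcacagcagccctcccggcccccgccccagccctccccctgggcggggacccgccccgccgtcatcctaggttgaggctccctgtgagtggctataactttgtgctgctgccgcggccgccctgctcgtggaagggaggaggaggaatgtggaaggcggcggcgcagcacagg

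Foxo4 (ENSMUSG00000042903), an X-linked member, spans chromosome X from 101254528 to 101260873 on the plus strand. WT livers had 403, 401, 353 and 392 normalized counts, and MøFoxO1-KO livers had 341, 282, 382 and 309. Replicates 26, 27 and 29 lay below all 4 WT livers, and replicate 28 exceeded WT replicate 24 only. WT livers averaged 387 ± 23.6 and MøFoxO1-KO livers 328 ± 42.9 (SD, n = 4 per group), which gave a log2 fold change of -0.24 (interval -0.51 to 0.036; edgeR, adjusted P = 0.366). The exact permutation test gave P = 0.0571, where 4 against 4 mice can reach 0.0286 at the lowest. With libraries scaled by their total counts alone the groups parted and this P reached 0.0286, but that scaling also moved the median log2 fold change of all genes from -0.014 to -0.17. Relative to that median, Foxo4 was at -0.22 in the first case and -0.21 in the second.

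Foxo6 (ENSMUSG00000052135), which is best known from the brain and also acts in hepatic glucose production, lies on chromosome 4 from 120267079 to 120287349 on the minus strand. It was close to the limit of detection. WT livers had 0, 2, 11 and 6 counts as deposited, and MøFoxO1-KO livers had 1, 2, 0 and 3. A count of 0 allows up to 3 counts, for counting error only. Of the 19 counts in WT livers, replicate 24 supplied 11, and all MøFoxO1-KO livers together had 6. Its counts were too low for the filter, and a difference was not detectable at this depth (fit without the filter, edgeR, log2 fold change -1.43, SE 1.06, adjusted P = 0.6, a fold change that depends on the prior count).

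The co-regulators gave log2 fold changes of both signs. Ep300 (ENSMUSG00000055024, chromosome 15 from 81585351 to 81652072, plus strand) had 379, 407, 411 and 424 normalized counts in WT livers. MøFoxO1-KO livers had 304, 321, 369 and 341, so that the highest of them stayed under the lowest WT liver. The estimated change was -17.6%, with an interval from -30.1% to -2.91%, or a log2 fold change of -0.28 ± 0.11 (SE; edgeR, unadjusted P = 0.0252, adjusted P = 0.237). The exact permutation test gave P = 0.0286, the smallest that 4 against 4 mice allow. At an unadjusted P under 0.05, 8.06% of all tested genes were lower in MøFoxO1-KO livers. Ep300 has 13886 bases of exon, longer than 97.6% of tested genes, and the 4539 tested genes over 5 kb had a median log2 fold change of -0.099 against 0.040 for the others. With an offset for gene length the log2 fold change of Ep300 was -0.16 (adjusted P = 0.486). The window around its RefSeq start is shown because Ep300 had the smallest P among the members; it held none of the motifs searched (GRCm38.p6, plus strand, chr15:81585964-81586263).

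Ep300: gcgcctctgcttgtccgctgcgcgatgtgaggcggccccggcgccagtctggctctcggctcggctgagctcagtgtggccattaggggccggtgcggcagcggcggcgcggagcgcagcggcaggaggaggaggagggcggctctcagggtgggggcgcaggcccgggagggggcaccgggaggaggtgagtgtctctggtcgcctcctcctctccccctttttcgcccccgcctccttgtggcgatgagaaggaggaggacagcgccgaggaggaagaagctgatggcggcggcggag

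Crebbp (ENSMUSG00000022521, chromosome 16 from 4081328 to 4213407, minus strand) encodes the close paralog of p300. Its normalized counts were 304, 308, 427 and 400 in WT livers, where replicates 22 and 23 lay well under replicates 24 and 25. MøFoxO1-KO livers had 358, 357, 400 and 360, within the WT range. The log2 fold change was 0.036 with an interval from -0.27 to 0.34 (edgeR, adjusted P = 0.924), and its sign turned without WT replicate 22 or 23 (-0.038 and -0.032) and with scaling by total counts (-0.13). The offset for gene length took it to 0.15 (edgeR, adjusted P = 0.641). The ratio of Ep300 to Crebbp counts does not depend on the scaling of a library. This ratio was 1.25, 1.32, 0.961 and 1.06 in WT livers and 0.85, 0.9, 0.922 and 0.947 in MøFoxO1-KO livers, so every MøFoxO1-KO value lay below every WT value. The gap was narrow, with 0.947 in MøFoxO1-KO replicate 29 against 0.961 in WT replicate 24. Ep300 counts alone were already without overlap, so the ratio is not a separate result. The ratio was chosen after its values were seen and was not tested, and ratios of other gene pairs were not computed.

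Sirt1 (ENSMUSG00000020063, chromosome 10 from 63319005 to 63381704, minus strand) was the only tested member besides Crebbp with a positive fold change. WT livers had 175, 155, 170 and 184 normalized counts, a spread of 12.1 (SD, n = 4). MøFoxO1-KO livers had 214, 168, 220 and 157. Replicates 26 and 28 thus lay above all WT livers and replicates 27 and 29 lay among them, so the same pairs of mice stood apart as for Foxo1 and Foxo3. The log2 fold change was 0.15 with an interval from -0.19 to 0.49 (edgeR, adjusted P = 0.664). With total counts alone it was 0.0005, and relative to the median of all genes under that scaling it was 0.17. Its RefSeq promoter window held the E-box CACGTG at 115 and 43 bases before the start.

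**Figure D2:**
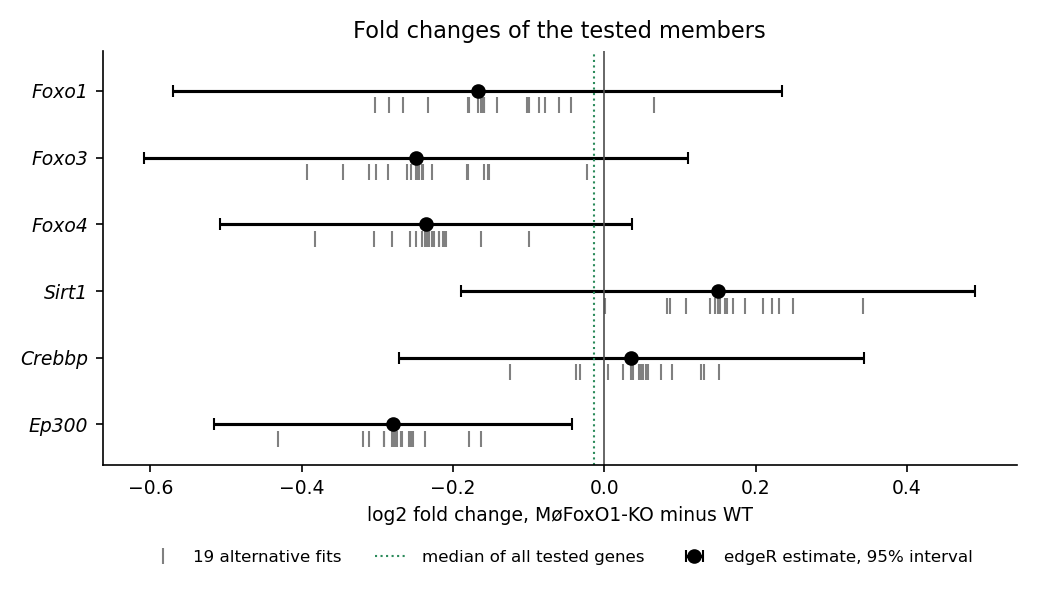
Log2 fold change of MøFoxO1-KO minus WT livers (horizontal axis) for the 6 tested members, with the edgeR estimate and its 95% interval in black, 19 alternative fits as grey ticks, and the median of all tested genes, -0.014, as a dotted line. The interval of Ep300, from -0.52 to -0.043, is the only interval that does not cross 0, and the ticks of Foxo1 and Crebbp fall on both sides of 0.

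Per length of exon, Foxo4 was the most abundant member. Levels were expressed as counts per 1000000 counts of the scaled library and per kb of exon (CPM per kb), a scale on which genes can be compared. Foxo4 ranged from 4.93 to 7.04 over the 8 livers with a median of 6.42, and no liver overlapped the range of Foxo3. Foxo3 came next with 2.35 to 4.18, and Foxo1 followed with 2.04 to 3.23. The ranges of Foxo3 and Foxo1 overlapped, although Foxo3 exceeded Foxo1 in 8 of 8 livers. Sirt1 ranged from 1.78 to 2.52, Crebbp from 1.44 to 2.02 and Ep300 from 1.33 to 1.86, and each overlapped its neighbor in this order. Foxo6 was last at 0 to 0.237. With the longest transcript as the length, chosen after seeing the data, Foxo4, Foxo3, Foxo1 and Sirt1 remained the first 4 in the same order while Ep300 moved ahead of Crebbp, and Foxo1 exceeded Sirt1 in 4 of 8 livers. Foxo4 lay above 65.3% of tested genes in level, and Ep300 above 34.4%, and the other 4 tested members lay between them.

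**Figure D3:**
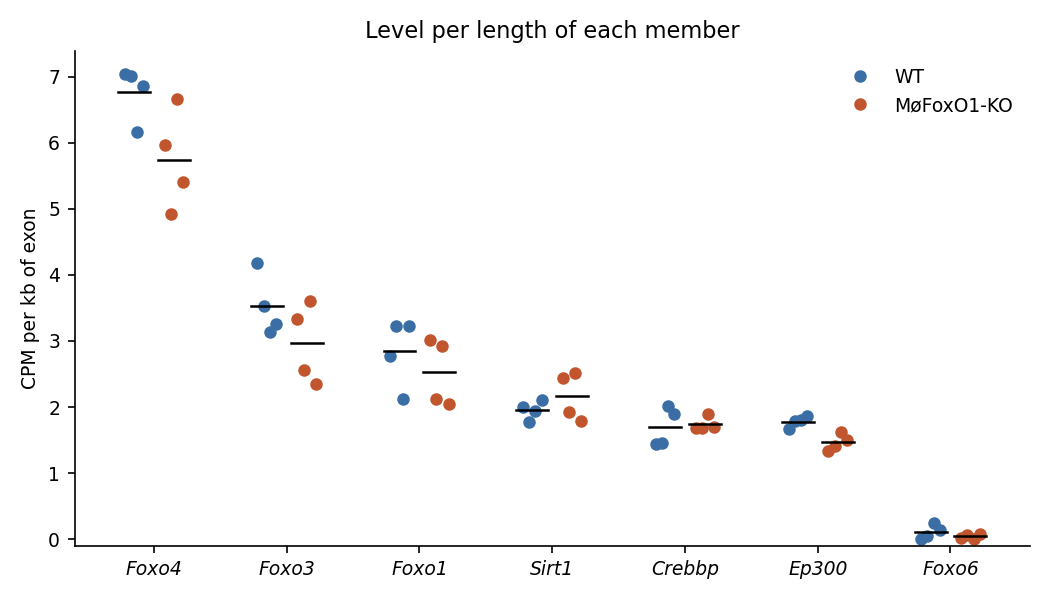
Level per length of each member (vertical axis, CPM per kb of exon), ordered by mean over all livers, with WT mice in blue, MøFoxO1-KO mice in orange and group means as lines. Foxo4 stands above all other members in every liver, at 4.93 or more, and Foxo6 lies near 0.

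The shares of the FoxO genes in the family did not differ beyond the spread between mice. Foxo4 supplied 51.2% ± 1.13 of the length-scaled FoxO sum in WT livers, against 51.1% ± 2.65 with the deletion (SD, n = 4 each). Foxo3 supplied 26.6% ± 2.42 and 26.2% ± 1.60, and Foxo1 21.4% ± 2.74 and 22.3% ± 1.59 (SD, n = 4 each). Foxo6 supplied 0.848% ± 0.897 and 0.387% ± 0.362 (SD, n = 4 each). In exact two-sided permutation tests these shares gave P = 0.943 for Foxo4, 0.8 for Foxo3, 0.571 for Foxo1 and 0.457 for Foxo6. The FoxO sum itself, in CPM per kb, was 14.0, 13.8, 11.7 and 13.5 in WT livers and 12.3, 9.68, 13.2 and 9.87 in MøFoxO1-KO livers, which gave P = 0.143 in the exact permutation test. Its 2 lowest values were those of replicates 27 and 29.

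Over the 8 livers, Foxo1, Foxo3 and Foxo4 followed one another, Foxo3 and Foxo4 most closely. As a description over 8 mice that share their library scaling, Pearson's r of log2 CPM was 0.87 for Foxo3 and Foxo4, 0.78 for Foxo1 and Foxo4 and 0.73 for Foxo1 and Foxo3. Spearman's rho was 0.81, 0.64 and 0.60 in the same order. Only 0.587% of tested genes followed Foxo3 as closely as Foxo4 did, while 2.88% and 4.79% followed Foxo1 as closely as Foxo4 and Foxo3 did. Ep300 reached an r of 0.71 with Foxo4 and 0.30 with Foxo1. Sirt1 and Crebbp stood at 0.44 and -0.26 with Foxo1.

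The genes most like Foxo1 in their pattern over the 8 mice were Nfia, a nuclear factor I transcription factor (r = 0.966), Acsm5, a mitochondrial acyl-CoA synthetase (0.960), Smoc1, a secreted matrix protein (0.959), Tango6 (0.958) and Afg1l, a mitochondrial ATPase (0.955). Those most like Foxo3 were Col6a5, a collagen VI chain (0.976), Wee1, a kinase that restrains entry into mitosis (0.963), Ppp1r16a, a phosphatase subunit (0.960), Herpud1, a factor of endoplasmic reticulum protein quality control (0.958) and Tppp, a tubulin-binding protein (0.956). Col6a5 had low counts, 39.3, 17.7, 15.7 and 12 normalized counts in WT and 16.3, 3.58, 31.3 and 1.12 in MøFoxO1-KO livers, so its r leans on counting error. The 2 sets shared no gene. With 5 genes in each, this does not show that Foxo1 and Foxo3 differ in pattern, and their own r was 0.73. None of these 10 genes was called between the groups (edgeR, adjusted P from 0.225 to 0.914).

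MøFoxO1-KO replicates 27 and 29, the livers with the least Foxo1, Foxo3 and Foxo4, also had the largest sums of macrophage marker transcripts. The summed normalized counts of 15 macrophage and Kupffer cell markers were 6159, 4662, 7149 and 5472 in WT livers. In MøFoxO1-KO livers they were 7028, 12186, 4598 and 18806. Replicates 27 and 29 thus exceeded every other liver, and replicate 28 was the lowest of all. Of these markers, 14 were higher and 1 was lower by log2 fold change, 6 of them higher at an unadjusted P under 0.05, against 8.65% of all tested genes, and 0 were called (edgeR, adjusted P 0.087 or more). Marco and Timd4 were called by DESeq2, and by edgeR when no filter on low counts was used or when MøFoxO1-KO replicate 28 was left out. Marco, a scavenger receptor of Kupffer cells, had 18.7, 4.92, 81.2 and 49.8 normalized counts in WT livers and 737, 2712, 66.4 and 2119 in MøFoxO1-KO livers. Cd5l, also of this list, had 1298, 940, 1528 and 1098 in WT and 1513, 3075, 1017 and 4695 in MøFoxO1-KO livers. Marco and Cd5l thus made up much of the sums of replicates 27 and 29, and these sums do not measure macrophage content evenly over the markers. Lyz2, whose promoter drives Cre here, was the 1 marker with a negative log2 fold change, -0.77 (adjusted P = 0.586), and had 605, 378, 1170 and 702 normalized counts in WT and 413, 99.1, 140 and 1022 in MøFoxO1-KO livers. None of the 15 markers was at 0 in any liver.

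Other measures moved with the same mice. Replicates 27 and 29 also had the largest sums of hepatocyte markers, 2061946 and 1882937 normalized counts, against 1173171 to 1702173 in the other 6 livers. The hepatocyte list had 8 higher and 1 lower of 9 tested, with a median of 0.37 and 0 calls, and the lists for neutrophils, lymphocytes, sinusoidal endothelium, stellate cells and cholangiocytes had medians of -0.045, 0.45, 0.24, 0.11 and -0.23 with 0 calls (edgeR; at an unadjusted P under 0.05, 3 hepatocyte genes and 1 lymphocyte gene were higher, and DESeq2 called the 3 hepatocyte genes). Replicates 27 and 29 had the smallest share of mitochondrially encoded counts, 4.16% and 4.72%, against 5.14% to 6.33% in the other 6 livers. In these livers the genes over 5 kb lay furthest below their own mean over all mice, by a median of -0.078 and -0.11 on the log2 scale. Without both livers, a fit chosen after seeing the data, the log2 fold change was 0.066 for Foxo1, -0.023 for Foxo3 and -0.099 for Foxo4. It was 0.34 for Sirt1 and -0.27 for Ep300 (edgeR, adjusted P from 0.813 to 0.991 over all of these genes). With 2 MøFoxO1-KO mice left, this fit called 0 genes among all tested and counted 882 at an unadjusted P under 0.05. These were the 2 lowest MøFoxO1-KO livers for Foxo1, Foxo3, Foxo4 and Sirt1, so leaving them out had to raise the values of these genes, and the fit is a description only. Whether macrophage content, RNA length or another feature of these livers had a part in these values was not tested.

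**Figure D4:**
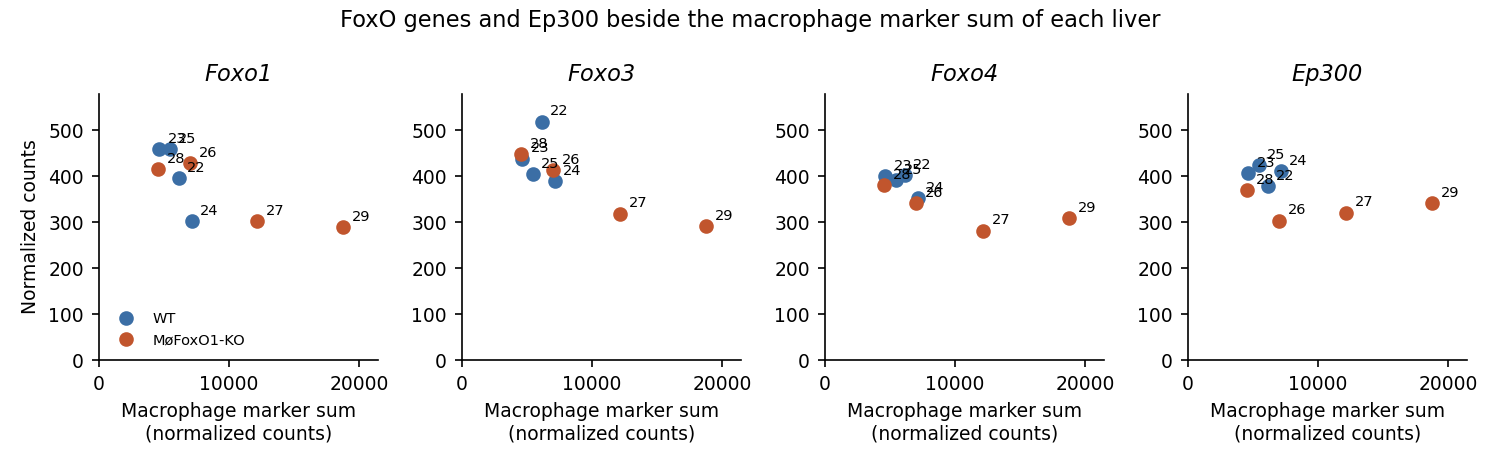
Normalized counts of Foxo1, Foxo3, Foxo4 and Ep300 (vertical axes, starting at 0) against the summed normalized counts of 15 macrophage markers (horizontal axes), with 1 point per liver, WT mice in blue, MøFoxO1-KO mice in orange and replicate numbers beside the points. Replicates 27 and 29 lie far to the right, at 12186 and 18806 counts, and low for the FoxO genes, while for Ep300 all MøFoxO1-KO livers lie low wherever they stand on the horizontal axis.

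The genes that act on FoxO proteins were read next, by lists that are described by counts and medians. The insulin, PI3K and AKT list held 26 tested genes, of which 5 had a positive and 21 a negative log2 fold change and 0 were called; their median was -0.13. Among all tested genes 51.7% had a negative value and the median was -0.014. In the fit with an offset for gene length the median of this list was -0.016. Trib3, a pseudokinase that binds and restrains AKT, had 349, 299, 332 and 261 normalized counts in WT livers and 190, 143, 176 and 97.4 in MøFoxO1-KO livers. These groups did not overlap, and the log2 fold change was -1.03 ± 0.20 (SE; edgeR, adjusted P = 0.0799; DESeq2 called it). Pik3cb, a catalytic PI3K subunit, had a log2 fold change of -0.55 and Irs2, the insulin receptor substrate that FoxO1 itself induces, of -0.65 (adjusted P = 0.212 and 0.259). Akt1 and Akt2, the kinases that phosphorylate FoxO proteins, were at -0.046 and 0.021.

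The other kinases that phosphorylate FoxO proteins, such as AMPK, JNK and MST enzymes, held 18 tested genes, 3 with a positive and 15 with a negative value, with a median of -0.11. Gsk3b, the glycogen synthase kinase, had 545, 869, 522 and 489 normalized counts in WT livers and 452, 362, 425 and 328 in MøFoxO1-KO livers, with no overlap (log2 fold change -0.63, edgeR, adjusted P = 0.175). Prkaa2, a catalytic AMPK subunit, was at -0.40, and Cdk2, a cell cycle kinase, at 0.24 (adjusted P = 0.304 and 0.369).

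The list of export, ubiquitin, methyl and O-GlcNAc enzymes held 17 tested genes, 6 positive and 11 negative, with a median of -0.11. Its 3 smallest P values all belonged to YWHA adaptors, which bind phosphorylated FoxO proteins. Ywhag had 1803, 2130, 1610 and 1507 normalized counts in WT livers and 1429, 1249, 1196 and 1121 in MøFoxO1-KO livers. Ywhaz had 1635, 1790, 1942 and 1787 in WT and 1440, 1302, 1487 and 1434 in MøFoxO1-KO livers. Both sets of values were fully apart, with log2 fold changes of -0.50 ± 0.14 and -0.34 ± 0.11 (SE; edgeR, adjusted P = 0.144 and 0.178; DESeq2 called both). Ywhah was at -0.31 (adjusted P = 0.241). The remaining YWHA genes of the list, Ywhaq, Ywhab and Ywhae, were at -0.15, -0.11 and -0.015 (edgeR, adjusted P = 0.47, 0.667 and 0.96). Of these, only Ywhaq had groups that did not overlap. Ogt and Mgea5, which add and remove O-linked GlcNAc, were at 0.24 and 0.071, and the exportin Xpo1 at -0.021. Prmt1 was not analysed here.

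Among further acetyltransferases, deacetylases and their regulators, 19 genes were tested, 8 positive and 11 negative, with a median of -0.071. Hdac1, a class I deacetylase, had 279, 257, 279 and 228 normalized counts in WT livers and 206, 153, 129 and 167 in MøFoxO1-KO livers, with no overlap and a log2 fold change of -0.67 ± 0.16 (SE; edgeR, adjusted P = 0.119; DESeq2 called it). Kat2b, the acetyltransferase PCAF, was at -0.28 (adjusted P = 0.25), also with groups apart. Ccar2, an inhibitor of Sirt1, was at -0.29 (adjusted P = 0.337). The 6 other sirtuins ran from -0.093 for Sirt2 to 0.23 for Sirt6, with Sirt5 at 0.0059 and Sirt3 at 0.037, both mitochondrial, and none was called. The list of FoxO and CBP/p300 cofactors held 15 tested genes, 3 positive and 12 negative, with a median of -0.13. Ppargc1a, the coactivator that FoxO1 works with in gluconeogenesis, was at -0.53, Ctnnb1, which encodes β-catenin, at -0.36, and the hepatocyte factor Hnf4a at -0.32 (edgeR, adjusted P = 0.243, 0.289 and 0.312). In these 5 lists of FoxO regulators, in the order given, 0 genes were called by edgeR in each, while at an unadjusted P under 0.05 the numbers were 3 of 26, 1 of 18, 3 of 17, 2 of 19 and 2 of 15, all lower in MøFoxO1-KO livers, against 8.06% of all tested genes. DESeq2 called 1, 0, 2, 1 and 0 of them, and 586 of the 13278 genes over all. In the same order, the list medians with an offset for gene length were -0.016, -0.026, -0.038, -0.078 and -0.10. The median of all tested genes in that fit was -0.002.

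**Figure D5:**
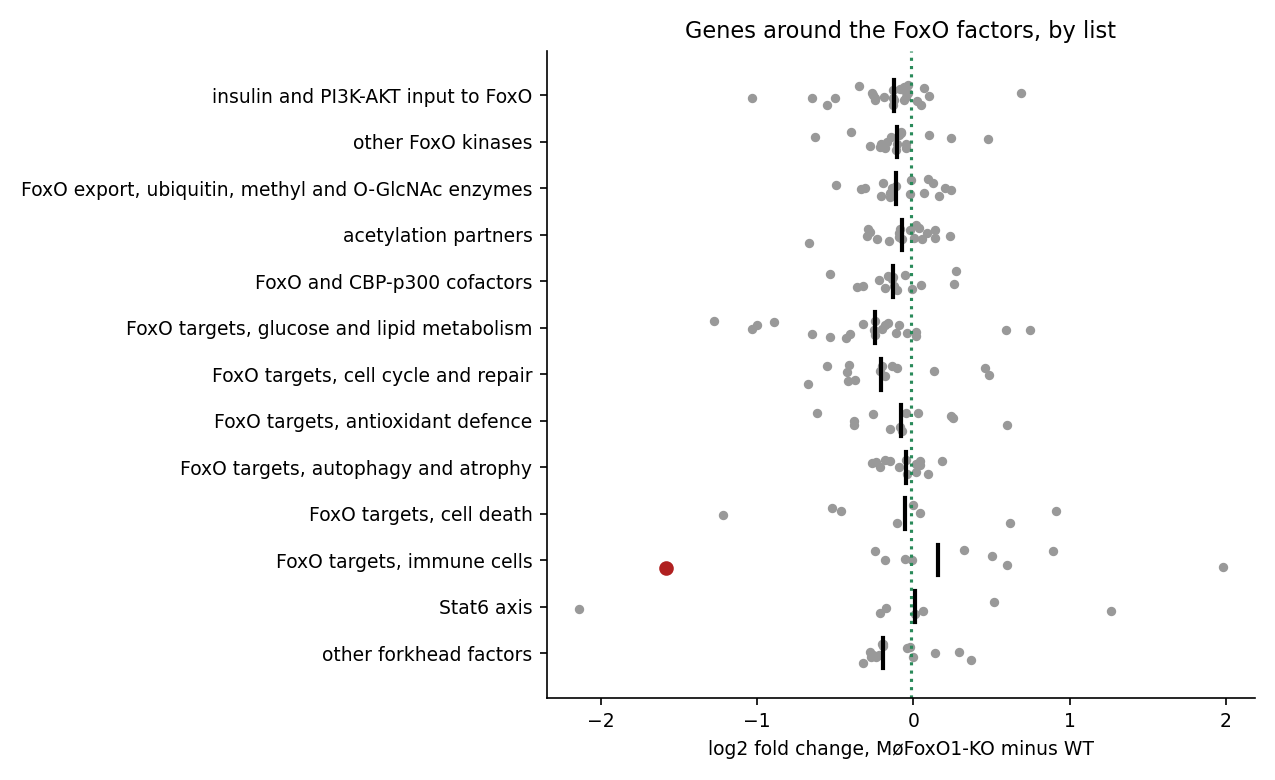
Log2 fold change of MøFoxO1-KO minus WT livers (horizontal axis) for each tested gene of 13 lists (rows; points are spread vertically for legibility only), with list medians as black bars and the median of all tested genes, -0.014, as a dotted line. Cd36, at -1.59 in the immune list, is the only gene called at an adjusted P under 0.05, drawn in red, and list medians run from -0.24 to 0.16.

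Known FoxO target genes were counted over 6 lists with 83 genes, 79 of them tested. Of these, 24 had a positive and 55 a negative log2 fold change, the median was -0.15 against -0.014 for all genes, and 1 was called, with 0 in the upward and 1 in the downward direction. At an unadjusted P under 0.05, 6 were higher and 10 lower. Among all genes tested, 8.65% were higher and 8.06% lower at this P and 0.294% were called. The median of the targets was -0.13 with an offset for gene length, -0.097 with an offset for length and GC content, -0.065 without WT replicate 23 and -0.074 without MøFoxO1-KO replicates 27 and 29. With total counts alone it was -0.30, where the median of all genes was -0.17. The called gene, Cd36, fell from 4818, 6279, 4769 and 5202 normalized counts in WT livers to 1543, 1553, 1980 and 1945 in MøFoxO1-KO livers (log2 fold change -1.59 ± 0.15 SE; edgeR, adjusted P = 0.00935). It encodes a fatty acid and scavenger receptor that hepatocytes and macrophages both make, so its place in a list of immune cell targets does not assign it to immune cells.

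Targets of glucose and lipid metabolism had a median of -0.24, with 4 higher and 18 lower of 22 tested, Trib3 among them. Without WT replicate 23 this median was -0.12. Pck1 and G6pc, which encode the gluconeogenic enzymes most tied to FoxO1, were at -0.042 and -0.094, with adjusted P of 0.958 and 0.871 (edgeR). Pdk4, the kinase that holds back pyruvate oxidation in fasting, had 288, 459, 591 and 301 normalized counts in WT livers and 84.4, 157, 109 and 329 in MøFoxO1-KO livers. Replicate 29 lay above WT replicates 22 and 25, and the other 3 MøFoxO1-KO livers lay below all WT livers (log2 fold change -1.28, edgeR, adjusted P = 0.183; DESeq2 called it). Angptl8, an insulin-induced inhibitor of lipoprotein lipase, had 1113, 890, 611 and 1352 in WT and 1584, 1897, 1725 and 1434 in MøFoxO1-KO livers, with no overlap in the opposite direction (log2 fold change 0.74, adjusted P = 0.157; DESeq2 called it). Among all genes tested, 5.00% had every MøFoxO1-KO mouse above every WT mouse.

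Cell cycle and repair targets had 3 higher and 11 lower of 14 tested, with a median of -0.21, or -0.11 without WT replicate 23. Klf6, a Krüppel-like factor, was at -0.56, the cyclin Ccng2 at -0.41 and the CDK inhibitor Cdkn2d at 0.46 (edgeR, adjusted P = 0.208, 0.37 and 0.406). Antioxidant targets had 4 higher and 8 lower of 12, with a median of -0.079. Prdx5, a peroxiredoxin, had 5067, 4638, 4145 and 5473 normalized counts in WT livers and 6995, 7917, 6931 and 7423 in MøFoxO1-KO livers, all higher (log2 fold change 0.60 ± 0.13 SE; edgeR, adjusted P = 0.0968; DESeq2 called it). The mitochondrial thioredoxin Txn2 was at 0.25 and the mitochondrial peroxiredoxin Prdx3 at -0.38 (adjusted P = 0.288 and 0.335). Sod2 and Cat, superoxide dismutase and catalase, were at -0.086 and -0.15.

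Autophagy and atrophy targets had 6 higher and 8 lower of 14 tested, none past an unadjusted P of 0.05, and a median of -0.045 (edgeR). Pik3c3, Atg12 and Gabarapl1, which act in autophagosome formation, were at -0.26, -0.24 and -0.18. Cell death targets had 3 higher and 5 lower of 8, with a median of -0.054. Bbc3 and Bcl2l11, which encode the BH3-only proteins PUMA and BIM, were at -0.52 and -0.46 (adjusted P = 0.25 and 0.297), and the death receptor gene Tnfrsf10b at -1.22 (adjusted P = 0.264; called without MøFoxO1-KO replicate 28).

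Immune cell targets had 5 higher and 5 lower of 10 tested, with a median of 0.16. Klf2, a factor of quiescent lymphocytes and endothelium, had 238, 89.5, 182 and 186 normalized counts in WT livers and 243, 392, 253 and 408 in MøFoxO1-KO livers, all above the WT livers (log2 fold change 0.89, edgeR, adjusted P = 0.187). Il1b, the inflammatory cytokine gene, had 14.1, 14.8, 48.0 and 40.8 in WT and 45.1, 159, 28.5 and 235 in MøFoxO1-KO livers, with replicates 27 and 29 again apart (log2 fold change 1.98, adjusted P = 0.204; DESeq2 called it). The Stat6 axis, which the study examined in macrophages, had 4 higher and 3 lower of 7 tested, with a median of 0.010. Stat6 itself was at -0.18 and the IL-4 receptor gene Il4ra at 0.010 (adjusted P = 0.421 and 0.98). Pparg, a nuclear receptor of adipocytes, steatotic hepatocytes and macrophages, had 480, 466, 532 and 289 normalized counts in WT and 8.63, 81.2, 257 and 51.5 in MøFoxO1-KO livers, with no overlap (log2 fold change -2.14 ± 0.67 SE; edgeR, adjusted P = 0.181; called without MøFoxO1-KO replicate 28). Clec10a, a lectin of macrophages, was at 1.26 (adjusted P = 0.218).

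Forkhead factors outside the FoxO family held 15 tested genes, 3 positive and 12 negative, with a median of -0.19. Foxp4, a repressor, had 497, 468, 509 and 456 normalized counts in WT and 415, 381, 441 and 394 in MøFoxO1-KO livers, with no overlap (log2 fold change -0.24, edgeR, adjusted P = 0.263). Foxa3, a liver pioneer factor, was at 0.37 and Foxn2 at -0.28 (adjusted P = 0.282 and 0.406). Foxk1 and Foxk2, whose proteins bind FoxO motifs, were at -0.19 and -0.22. The size of the median was thus close to that of the FoxO genes themselves, from -0.17 to -0.25.

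The promoters of the target genes were read for the FoxO core GTAAACA and the insulin response core CAAAACA, on both strands, in RefSeq windows from 250 bases before to 50 bases after a gene's start (GRCm38.p6). The CCAAT box and the palindromes CACGTG (E-box) and TGACGTCA (cyclic AMP response element) were searched as well and stood in 37.4%, 7.15% and 1.79% of all windows. No 2 of these motifs share their letters in full, and matches were counted for each motif separately. Of 83 targets, 63 had a window. GTAAACA was held by 9 of them, 14.3%, against 3.65% of all 32851 windows, and CAAAACA by 7, 11.1%, against 6.28%. The target shares count genes with a match in any of their windows, and genes such as Bbc3 and Bcl2l11 have several. The shares of all windows count single windows, so these shares are unlike measures and their gap does not measure an enrichment. The 5 members with a window, Foxo1, Foxo3, Sirt1, Crebbp and Ep300, held 0 matches to either core. They had 30 to 49 CG dinucleotides each, where the median window had 7. Among tested targets, 7 of 8 with GTAAACA and 6 of 6 with CAAAACA were lower in MøFoxO1-KO livers, with medians of -0.18 and -0.33, and 0 were called. For all tested genes whose windows held these letters, 331 and 555 in number, the medians were -0.001 and -0.018, and 167 and 294 were lower. Of all 79 tested targets 55 were lower, so the counts of 8 and 6 targets do not separate the motifs from the target list. Stretches of 5 target promoters are shown with the match in capitals, since they carry the cores in genes of glucose metabolism and cell death; Igfbp1 and G6pc were picked after their values were seen. They lie at chr11:7197649-7197715 (Igfbp1, plus strand), chr11:101367512-101367578 (G6pc, plus strand), chr8:11008930-11008996 (Irs2, minus strand), chr7:16310064-16310130 (Bbc3, plus strand) and chr2:128125788-128125847 (Bcl2l11, plus strand).

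Igfbp1: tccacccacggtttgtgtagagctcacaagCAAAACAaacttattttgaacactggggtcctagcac
G6pc: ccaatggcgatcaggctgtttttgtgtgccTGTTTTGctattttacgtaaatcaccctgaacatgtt
Irs2: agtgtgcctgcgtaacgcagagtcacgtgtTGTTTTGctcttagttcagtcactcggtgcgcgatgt
Bbc3: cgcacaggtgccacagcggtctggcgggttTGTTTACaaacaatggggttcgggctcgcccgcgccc
Bcl2l11: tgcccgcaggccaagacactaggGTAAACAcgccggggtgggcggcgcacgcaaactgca

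In Igfbp1 and Bcl2l11 the core reads on the gene's own strand, and in the others it reads on the opposite strand, as TGTTTTG or TGTTTAC. Igfbp1, a secreted binder of insulin-like growth factors, had 127, 286, 791 and 310 normalized counts in WT livers and 96.8, 174, 160 and 389 in MøFoxO1-KO livers, which overlapped widely (log2 fold change -0.89 ± 0.54 SE; edgeR, adjusted P = 0.442). G6pc had 2349, 3664, 3323 and 4464 in WT and 2090, 3343, 3599 and 3896 in MøFoxO1-KO livers. Irs2 had 70.3, 57.0, 105 and 57.7 in WT and 39.3, 40.6, 57.9 and 47.0 in MøFoxO1-KO livers, where replicate 28 reached the lower WT values. Bbc3 had 219, 240, 186 and 156 in WT and 140, 96.7, 146 and 176 in MøFoxO1-KO livers. Bcl2l11 had 137, 151, 217 and 127 in WT and 123, 92.0, 110 and 134 in MøFoxO1-KO livers, so the groups of all 5 genes overlapped.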

How the data were processed

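Liver poly(A) RNA-Seq of 8 mice was analysed, 4 per group, from a table of counts per gene that the authors deposited without normalization. The submitters' processing notes name STAR, featureCounts and mm10; the strand setting and the treatment of multi-mapped reads are not given in the sources used here. Identifiers were paired with symbols through GENCODE M21 (46005 of 46517), and genes without a symbol held 0.0399% of counts. No antisense or overlapping gene that shares exons with a member had counts.

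MøFoxO1-KO was compared with WT in edgeR 4.0.16 (R 4.3.3; filterByExpr, TMM, quasi-likelihood F test); P was adjusted by Benjamini-Hochberg over 13278 genes. Standard errors were the log2 fold change over the root of F. Normalized counts of a member were compared by exact two-sided permutation over 70 splits (scipy 1.17.1), with P given unadjusted for 7 members. Levels were CPM per kb of exon. DESeq2 1.42.0, limma-voom (limma 3.58.1), other scalings and filters, offsets and omitted mice were alternatives. The code was tested on simulated data. Named genes were the members, list genes called or among the 3 smallest P of their list, and the 5 genes most correlated with Foxo1 and Foxo3 (log2 CPM with a prior count of 2); other list genes were named for their known role after their values were seen. Members and lists were chosen with earlier results of these data known. The p-values measure the spread between these mice. The depth, 15253218 to 18025481 counts per library, gave each tested member 140 to 554 counts per mouse.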

Additional observations from a re-analysis of the deposited data

Results flagged for a closer look

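Crebbp had 400.5 normalized counts in MøFoxO1-KO replicate 28, apart from the 357 to 360.5 of the other 3 MøFoxO1-KO livers, with a gap of 0.922 of the group's range above Dixon's 95% critical value for 4 samples. This liver also had the lowest macrophage marker sum, 4598. It was the only value picked out among 38 groups of 4 values examined (members, FoxO shares, marker sums and the ratio of Ep300 to Crebbp), and chance alone picks out about 1 in 20 groups.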

How the results depend on the processing

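No paired analysis was made, because the sample labels give no litter or other pairing between the groups. None of the 6 tested members was called in any of 19 alternative fits. Foxo3, Foxo4, Ep300 and Sirt1 kept the sign of their log2 fold change in all of them, from -0.39 to -0.023, -0.38 to -0.099, -0.43 to -0.16 and 0.0005 to 0.34. Foxo1 ran from -0.30 to 0.066 and turned positive only without MøFoxO1-KO replicates 27 and 29 (0.066). Crebbp turned negative with total counts alone (-0.13) and without WT replicate 22 or 23; leaving out single mice gave it -0.038 to 0.13. With total counts alone the difference of mean normalized counts, MøFoxO1-KO minus WT, was -0.125 for Sirt1 and -32.0 for Crebbp, and for Foxo4 it was -94.9 (exact permutation test, P = 0.0286); that scaling lowered the median of all genes. The cause was not tested for the turns without a mouse.

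The number of genes called over all genes, 39 (23 lower, 59.0%), was 59 with total counts alone (76.3% lower), 586 in DESeq2 (41.6% lower), 24 in limma-voom and 205 without a filter, and 3 to 129 without 1 mouse, lowest without WT replicate 25 and highest without MøFoxO1-KO replicate 28. Without WT replicate 22 it was 16 and without MøFoxO1-KO replicates 26, 27 and 29 it was 10, 7 and 14. With the fold limit, the 25 genes became 144 in DESeq2, 13 in limma-voom, 120 without a filter and 3 to 82 without 1 mouse. Without both MøFoxO1-KO replicates 27 and 29 both counts were 0 (edgeR; 882 at an unadjusted P under 0.05). List values moved beyond the spread between mice in 60 of 798 list values recomputed. Foxo6 could not be fitted in the filtered alternatives, and at 0 to 11 counts per liver depth limits it.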
